A study of Saccharomyces cerevisiae with 14 samples.

Results

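The comparison described here asks which genes answered heat differently in 2 *Saccharomyces cerevisiae* strains, NFRI 3236 and NFRI 3155. The study describes NFRI 3236 as thermotolerant and NFRI 3155 as thermosensitive. For every gene the change at 39 °C over 30 °C was taken in each strain, and the change in NFRI 3155 was subtracted from the change in NFRI 3236. This difference of differences is called the interaction below. It rests on 8 of the 14 arrays of the series, with 2 arrays each of NFRI 3236 at 39 °C, NFRI 3236 at 30 °C, NFRI 3155 at 39 °C and NFRI 3155 at 30 °C, and it was tested for 5443 of the 5449 *S. cerevisiae* genes on the array. The other 6 arrays are of S288C, a laboratory strain that served the study as its control. They enter the estimate of the spread, the filter on low signals, the choice of probe set for a gene and 1 side comparison. At 39 °C, exponentially growing cells in rich glucose medium (YPD) had spent 30 min in a preheated flask. The 2 NFRI strains came from a culture collection, differ in genetic background and are 1 isolate each, so a difference between them belongs to these isolates and not to heat tolerance as such.

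Yeast cells that are warmed abruptly start 2 programs at once. The heat shock factor Hsf1 raises chaperones, which keep proteins folded, and the Msn2 and Msn4 factors raise a broad general stress program of small heat shock proteins, antioxidant enzymes and carbohydrate reserves. At the same time the genes that make ribosomes, which are costly to run during growth, are switched down. Genes for the uptake and assimilation of sulfur, phosphate and nitrogen answer instead to nutrient supply, through regulators of their own.

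RNA was measured as linear signal intensities on Affymetrix Yeast Genome 2.0 arrays. Signals are given below as scaled signals, in units of the array's own 75th percentile, which lay between 171 and 438 on the NFRI arrays. The 95th percentile of the fission yeast probe sets of each array was taken as its background, and 5013 genes were above background on all 8 NFRI arrays. Replicate arrays correlated across genes at 0.965 (NFRI 3236, 39 °C), 0.988 (NFRI 3236, 30 °C), 0.95 (NFRI 3155, 39 °C) and 0.991 (NFRI 3155, 30 °C), so the arrays at 39 °C differed more within a pair than those at 30 °C. The ratio of 3' to 5' signal of *WBP1*, a measure of RNA integrity, was 10.9 on replicate 2 of NFRI 3236 at 39 °C and 2.58 to 5.86 on the other 7 NFRI arrays. The same ratios of *ACT1* (1.27) and *SPT15* (3.95) on that array lay within those of the other 7 (1.22 to 1.58 and 3.62 to 6.31). Without this array the interaction call was lost for 26 of the 69 called genes that the naming rule chose and for 11 of 14 called genes named outside it, and the adjusted p without it is given beside the main ones of these. Leaving out other single arrays cost calls as well. Signals are relative to the array, so a change in the total RNA of a cell is not seen.

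The heat changes of the 2 strains ran together across genes, with a Pearson correlation of 0.781 over the 5443 genes, which are not independent replicates. Against this shared response, 136 genes (2.5% of those tested) passed the interaction test at an adjusted p under 0.05 (limma). The response was higher in NFRI 3236 for 40 genes (0.735%) and lower for 96 genes (1.76%). The heat responses differed at least 2.36-fold in all 136, and 109 of them were above background on all 8 NFRI arrays (2.17% of the 5013 genes there). At an unadjusted p under 0.05 there were 872 genes. The count depended on single arrays. It was 63 without replicate 1 of NFRI 3155 at 30 °C, 78 without replicate 2 of NFRI 3236 at 39 °C and 280 without replicate 1 of NFRI 3236 at 39 °C. Of the 136 genes, 45 passed the test whichever of the 8 arrays was left out, 6 of them higher and 39 lower in NFRI 3236. A median standard error of 0.39 on the log2 scale left the unadjusted 95% interval of a typical interaction 0.83 wide on either side. The smallest interaction called was 1.24 on this scale, so differences below that were not detected with 2 arrays per group. The split also depended on the scaling. Without the shift to the 75th percentile every interaction was 0.62 higher on the log2 scale, and 24 genes passed, 12 higher and 12 lower in NFRI 3236, so all directions below are relative to the 75th percentile of the array.

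**Figure D1:**
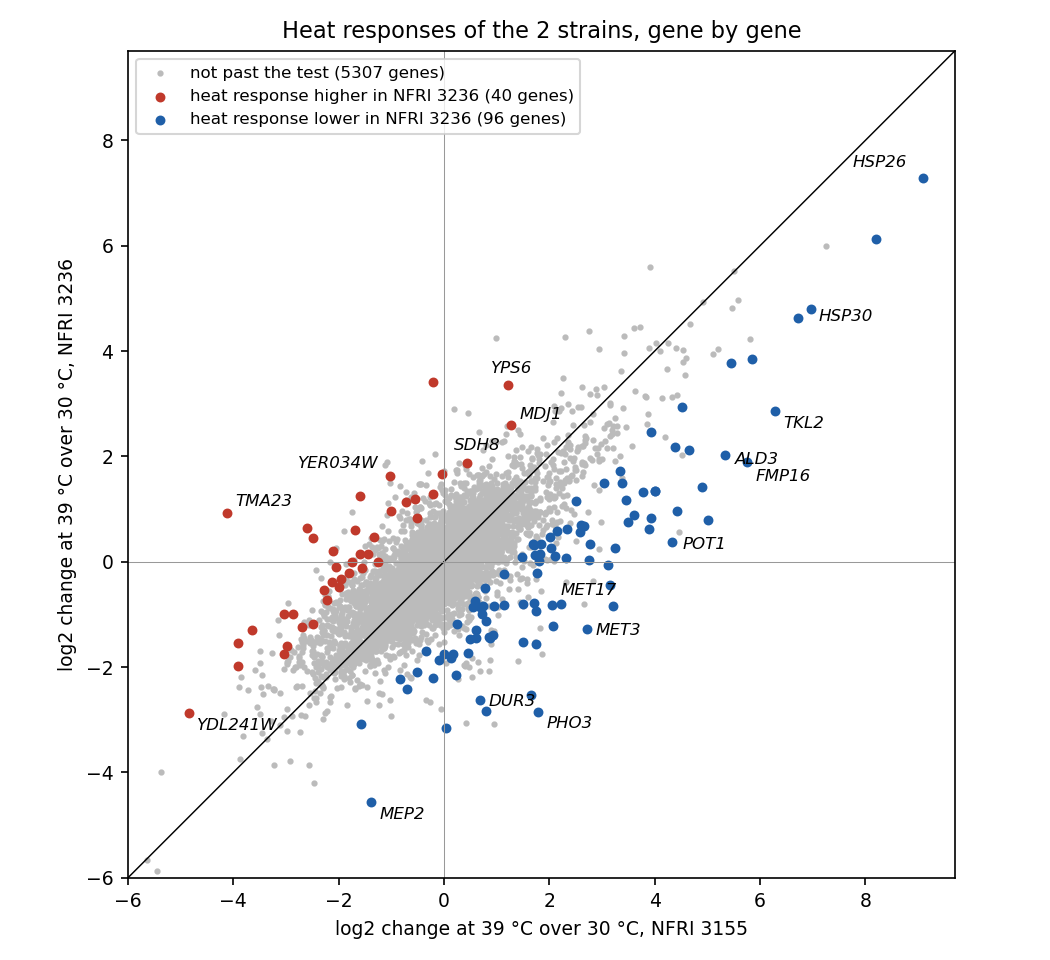
Log2 change at 39 °C over 30 °C in NFRI 3236 (vertical axis) against that in NFRI 3155 (horizontal axis), 1 point per gene, with the line of equal response. The 40 genes with a higher response in NFRI 3236 lie in red above the line and the 96 with a lower response in blue below it. Many blue points lie far to the right, where NFRI 3155 rose strongly.

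Which strain moved was read from the heat test within each strain, which called 854 genes higher (15.7%) and 1277 lower (23.5%) in NFRI 3236 and 987 higher (18.1%) and 1312 lower (24.1%) in NFRI 3155. Among the 96 genes with a lower response in NFRI 3236, the commonest pattern was a rise in NFRI 3155 with no call in NFRI 3236, in 33 genes. Another 24 genes rose in both strains, and rose less in NFRI 3236, with a median log2 change of 1.95 in NFRI 3236 beside 4.47 in NFRI 3155. In 17 genes the strains went opposite ways, down in NFRI 3236 and up in NFRI 3155, counting *PHO3*, whose rise in NFRI 3155 lies at background level. Above background on all 8 NFRI arrays were 23 of those 33 genes, 19 of those 24 and 12 of these 17. In 18 genes NFRI 3236 fell with no call in NFRI 3155, and 4 genes fell in both strains, further in NFRI 3236. Among the 40 genes with a higher response in NFRI 3236, 18 fell in NFRI 3155 with no call in NFRI 3236 and 11 fell in both, less so in NFRI 3236. Only 11 of the 40 rose in NFRI 3236, made up of 7 with no call in NFRI 3155, 2 that rose in both strains and 2 that fell in NFRI 3155. The 7 include *MAL11* and *SOR2*, which were not above background on any NFRI 3155 array. A response higher in NFRI 3236 was thus, in 29 of 40 genes, a smaller fall or no called change beside a fall in NFRI 3155. Over all genes tested, 382 rose in NFRI 3155 with no call in NFRI 3236, and 588 rose in both strains. A further 337 fell in NFRI 3236 with no call in NFRI 3155, and 923 fell in both. In 387 genes NFRI 3155 fell with no call in NFRI 3236, and in 264 NFRI 3236 rose with no call in NFRI 3155. Opposite calls were limited to the 17 and the 2 genes counted above.

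**Figure D2:**
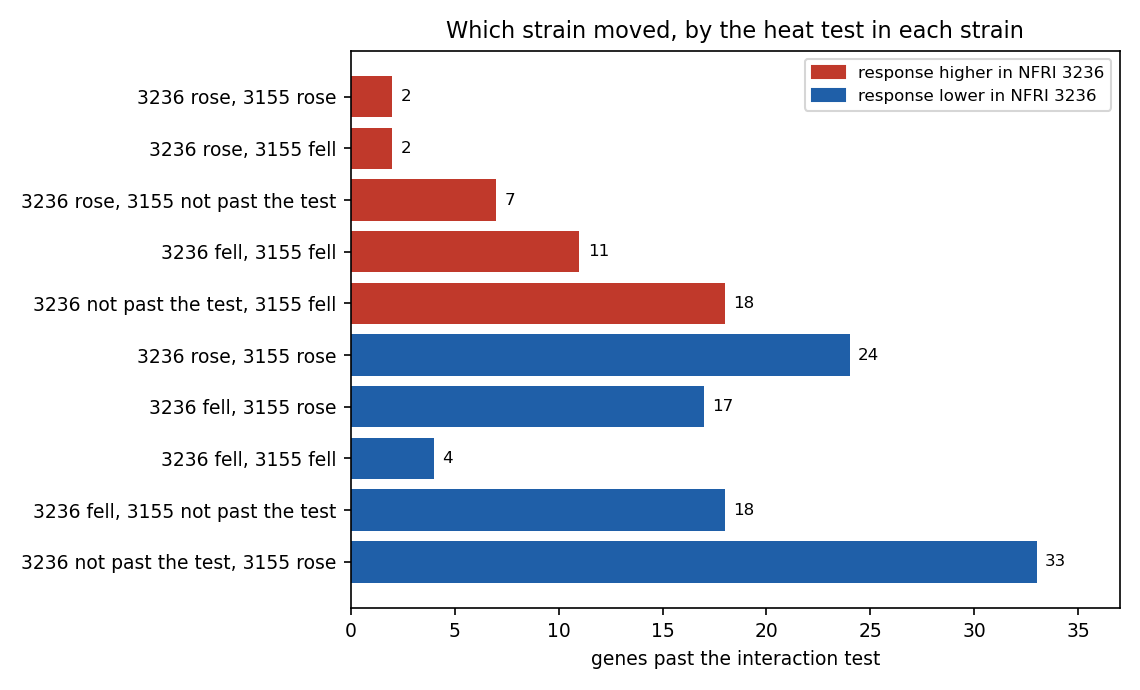
Number of genes past the interaction test (horizontal axis) in each pattern of heat calls, NFRI 3236 named first, with red bars for a higher and blue bars for a lower response in NFRI 3236. The longest bars are 33 genes that rose in NFRI 3155 alone and 24 that rose in both strains.

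An interaction can come from levels that stand apart at either temperature. Of the 136 genes, 63 differed between the strains at 39 °C and not at 30 °C by the strain test, 38 at 30 °C and not at 39 °C, 31 at both temperatures and 4 at neither. For the 96 genes with a lower response, NFRI 3236 was lower at 39 °C in 56 and already higher at 30 °C in 48. For the 40 genes with a higher response, NFRI 3236 was higher at 39 °C in 27 and lower at 30 °C in 13. These tests share arrays with the interaction and only say where its terms differed. Over all 5443 genes tested, 525 were higher (9.65%) and 585 lower (10.7%) in NFRI 3236 than in NFRI 3155 at 39 °C, and 242 higher (4.45%) and 243 lower (4.46%) at 30 °C.

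In the sulfate assimilation pathway, 3 of 32 tested genes moved in opposite directions in the 2 strains, down in NFRI 3236 and up in NFRI 3155. Over all 5443 genes, 17 did so and 2 went the other way. The pathway reduces sulfate to sulfide in a chain of enzymes and passes the sulfide to homoserine to make methionine. *MET3* (YJR010W), the ATP sulfurylase that opens the chain, had scaled signals of 8.84 and 5.51 in NFRI 3236 at 39 °C and 17.9 and 16 in NFRI 3236 at 30 °C, against 3.07 and 3.87 in NFRI 3155 at 39 °C and 0.514 and 0.533 in NFRI 3155 at 30 °C. NFRI 3236 thus fell to 0.413-fold on heating while NFRI 3155 rose 6.58-fold, and no array of one group overlapped another group. The interaction was -3.99 ± 0.45 on the log2 scale (SE, adjusted p = 0.000553), with a 95% interval of -4.98 to -3.01. *MET14*, the APS kinase of the next step, had 9.98 and 9.79 in NFRI 3236 at 39 °C and 19.5 and 18.1 in NFRI 3236 at 30 °C, against 2.42 and 1.39 in NFRI 3155 at 39 °C and 0.518 and 0.583 in NFRI 3155 at 30 °C. *MET17*, which joins sulfide to O-acetylhomoserine, had 26 and 20.4 in NFRI 3236 at 39 °C and 52.6 and 31.9 in NFRI 3236 at 30 °C, against 20.8 and 26.2 in NFRI 3155 at 39 °C and 5.80 and 5.46 in NFRI 3155 at 30 °C. *MET17* differed 7.28-fold between the strains at 30 °C and lay in the same range in both at 39 °C, whereas *MET14* remained 5.39-fold higher in NFRI 3236 at 39 °C. Their interactions were -2.66 ± 0.39 for *MET14* and -2.88 ± 0.38 for *MET17* (SE, adjusted p = 0.00299 and 0.00186).

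Of the 32 tested genes of sulfate assimilation and methionine synthesis, 6 passed the interaction test, all lower in NFRI 3236 (18.8% of the list, against 1.76% of all genes). Beside those 3 they were *MET5*, the beta subunit of sulfite reductase (interaction -1.96), *MET16*, the PAPS reductase (-1.98), and *MET1*, a methyltransferase that makes its siroheme cofactor (-1.37). Without replicate 2 of NFRI 3236 at 39 °C the calls of *MET5* (adjusted p = 0.0556) and *MET1* (adjusted p = 0.111) were lost, and without replicate 1 of NFRI 3155 at 30 °C that of *MET16* (adjusted p = 0.0539). *MET16* and *MET1* had risen in NFRI 3155 with no call in NFRI 3236, and *MET5* had fallen in NFRI 3236 with no call in NFRI 3155. All 6 were higher in NFRI 3236 than in NFRI 3155 at 30 °C, as were 18 of the 32 in all. At 39 °C, 15 of the 32 were higher in NFRI 3236 and 1 was lower, and *MET17* was not among those called. Over all genes 4.45% were higher in NFRI 3236 at 30 °C and 9.65% at 39 °C. *MET10*, the alpha subunit of sulfite reductase, had an interaction of -1.58 and missed the threshold (adjusted p = 0.0985). The pathway was not uniform. The sulfate permease gene *SUL1* rose 7.24-fold in NFRI 3236, beside 4.3-fold in NFRI 3155, with an interaction of 0.75, and *MET8*, which completes siroheme, had an interaction of 1.59, neither past the test (adjusted p = 0.514 and 0.182). The median interaction of the list was -0.51, against -0.03 over all genes (0.12 for the list without the shift), with median heat changes of -0.36 in NFRI 3236 and 0.35 in NFRI 3155. Leaving out single arrays gave 4 to 7 calls in the list, and there was 1 without the shift.

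**Figure D3:**
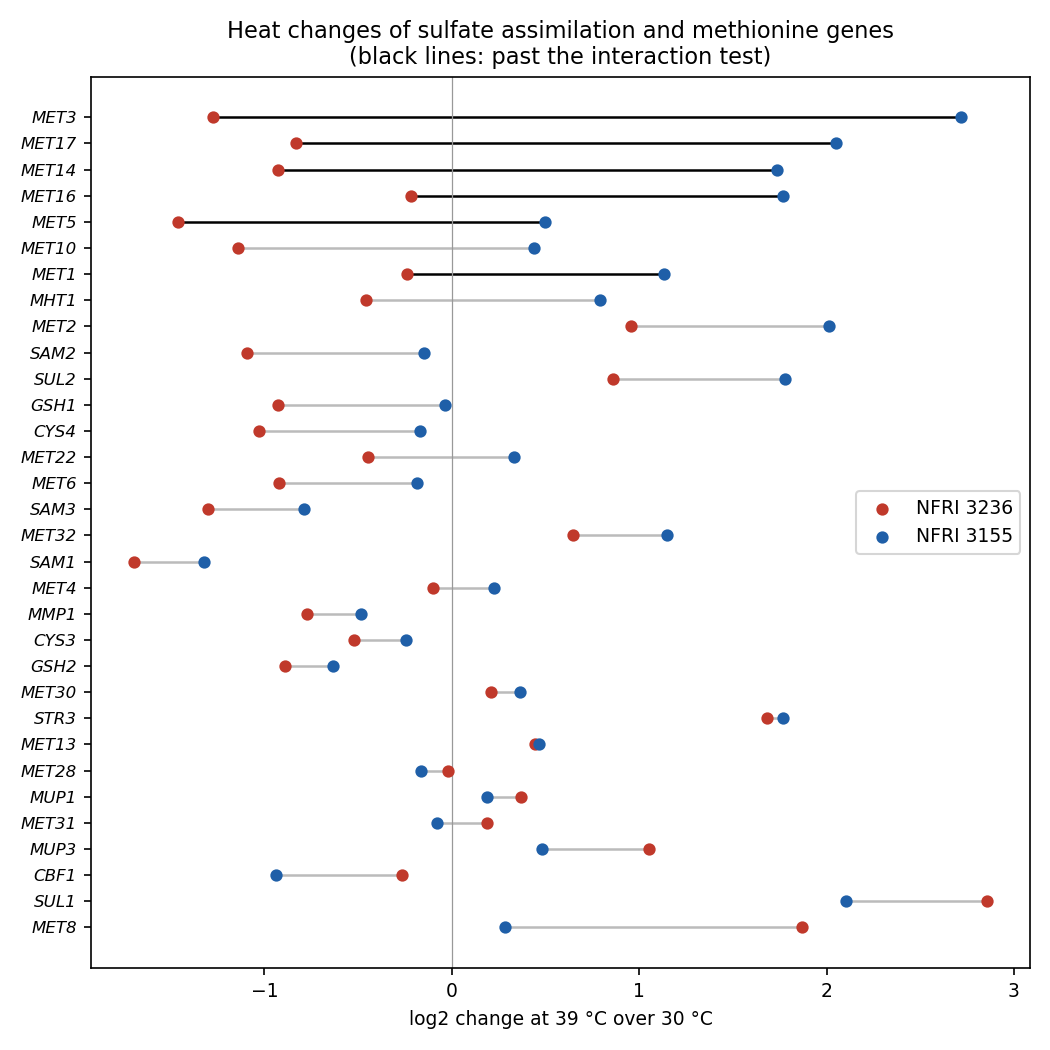
Log2 heat change (horizontal axis) of each of the 32 tested sulfate assimilation and methionine genes in NFRI 3236 (red) and NFRI 3155 (blue), joined by a line that is black where the interaction passed the test. For *MET3*, *MET17* and *MET14* the red point lies below 0 and the blue point above it.

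Of 35 tested genes of the general stress program, 12 had a lower response in NFRI 3236 (34.3% of the list, against 1.76% of all genes) and none a higher one. In this list 28 genes rose in NFRI 3236 and 32 in NFRI 3155, beside 15.7% and 18.1% of all genes. Median heat changes were 2.58 in NFRI 3236 and 3.61 in NFRI 3155. Of the 35 interactions 30 were negative (median -1.19), beside 2850 of 5443 over all genes. Without the shift the list had 3 calls and a median of -0.56. Above background on all 8 NFRI arrays were 25 of the 35. The 12 genes came about in 2 ways. Of these, 7 (*ALD3*, *DDR2*, *FMP16*, *FMP45*, *GRE1*, *OM45* and *SIP18*) differed at 39 °C and not at 30 °C by the strain test, 4 (*HSP12*, *HSP26*, *HSP30* and *YGP1*) differed at 30 °C and not at 39 °C, and *SPG1*, a gene of stationary phase survival, differed at both. *FMP16* (YDR070C), a mitochondrial protein of the stress program, had scaled signals of 0.20 and 0.313 in NFRI 3236 at 39 °C and 0.0690 and 0.0664 in NFRI 3236 at 30 °C, against 6.69 and 6.19 in NFRI 3155 at 39 °C and 0.111 and 0.129 in NFRI 3155 at 30 °C. The rise was 3.69-fold in NFRI 3236 beside 53.8-fold in NFRI 3155 (interaction -3.86 ± 0.43, SE, adjusted p = 0.000553), and at 39 °C every NFRI 3236 array lay far under both NFRI 3155 arrays. *ALD3*, a cytosolic aldehyde dehydrogenase, had 0.569 and 0.509 in NFRI 3236 at 39 °C, against 4.70 and 6.42 in NFRI 3155 at 39 °C, from levels that overlapped at 30 °C (0.147 and 0.120 in NFRI 3236, 0.129 and 0.144 in NFRI 3155). The multistress gene *DDR2* followed the same pattern on a steeper rise, with 4.33 and 5.05 in NFRI 3236 at 39 °C against 17.5 and 16.7 in NFRI 3155 at 39 °C, but its call (adjusted p = 0.043) was lost in all 8 fits without 1 array.

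The other route was a higher starting level in NFRI 3236. *HSP26*, a small heat shock protein that binds unfolded proteins, had 30.3 and 26.2 in NFRI 3236 at 39 °C and 0.177 and 0.182 in NFRI 3236 at 30 °C, against 31.7 and 35.5 in NFRI 3155 at 39 °C and 0.0582 and 0.0644 in NFRI 3155 at 30 °C. *HSP30*, a membrane protein induced by stress, had 19.8 and 14.2 in NFRI 3236 at 39 °C and 0.531 and 0.682 in NFRI 3236 at 30 °C, against 13.4 and 21.9 in NFRI 3155 at 39 °C and 0.140 and 0.135 in NFRI 3155 at 30 °C. For both genes the arrays at 39 °C lay close together and the arrays at 30 °C stood apart, higher in NFRI 3236. *YGP1*, a secreted glycoprotein of the cell wall, had 20.3 and 18.7 in NFRI 3236 at 39 °C and 8.14 and 7.41 in NFRI 3236 at 30 °C, against 21.7 and 28.9 in NFRI 3155 at 39 °C and 1.26 and 2.62 in NFRI 3155 at 30 °C. The interactions of these 3 were -1.80 ± 0.43 for *HSP26*, -2.16 ± 0.41 for *HSP30* and -2.46 ± 0.48 for *YGP1* (SE, adjusted p = 0.0438, 0.0135 and 0.0147). *HSP30* and *YGP1* each lost the call in 4 of the 8 fits without 1 array, and *HSP26* in 7 of 8 (adjusted p up to 0.152). The list had 5 calls without replicate 2 of NFRI 3236 at 39 °C, 5 without replicate 1 of NFRI 3155 at 30 °C and 15 without replicate 1 of NFRI 3236 at 39 °C, in place of 12.

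**Figure D4:**
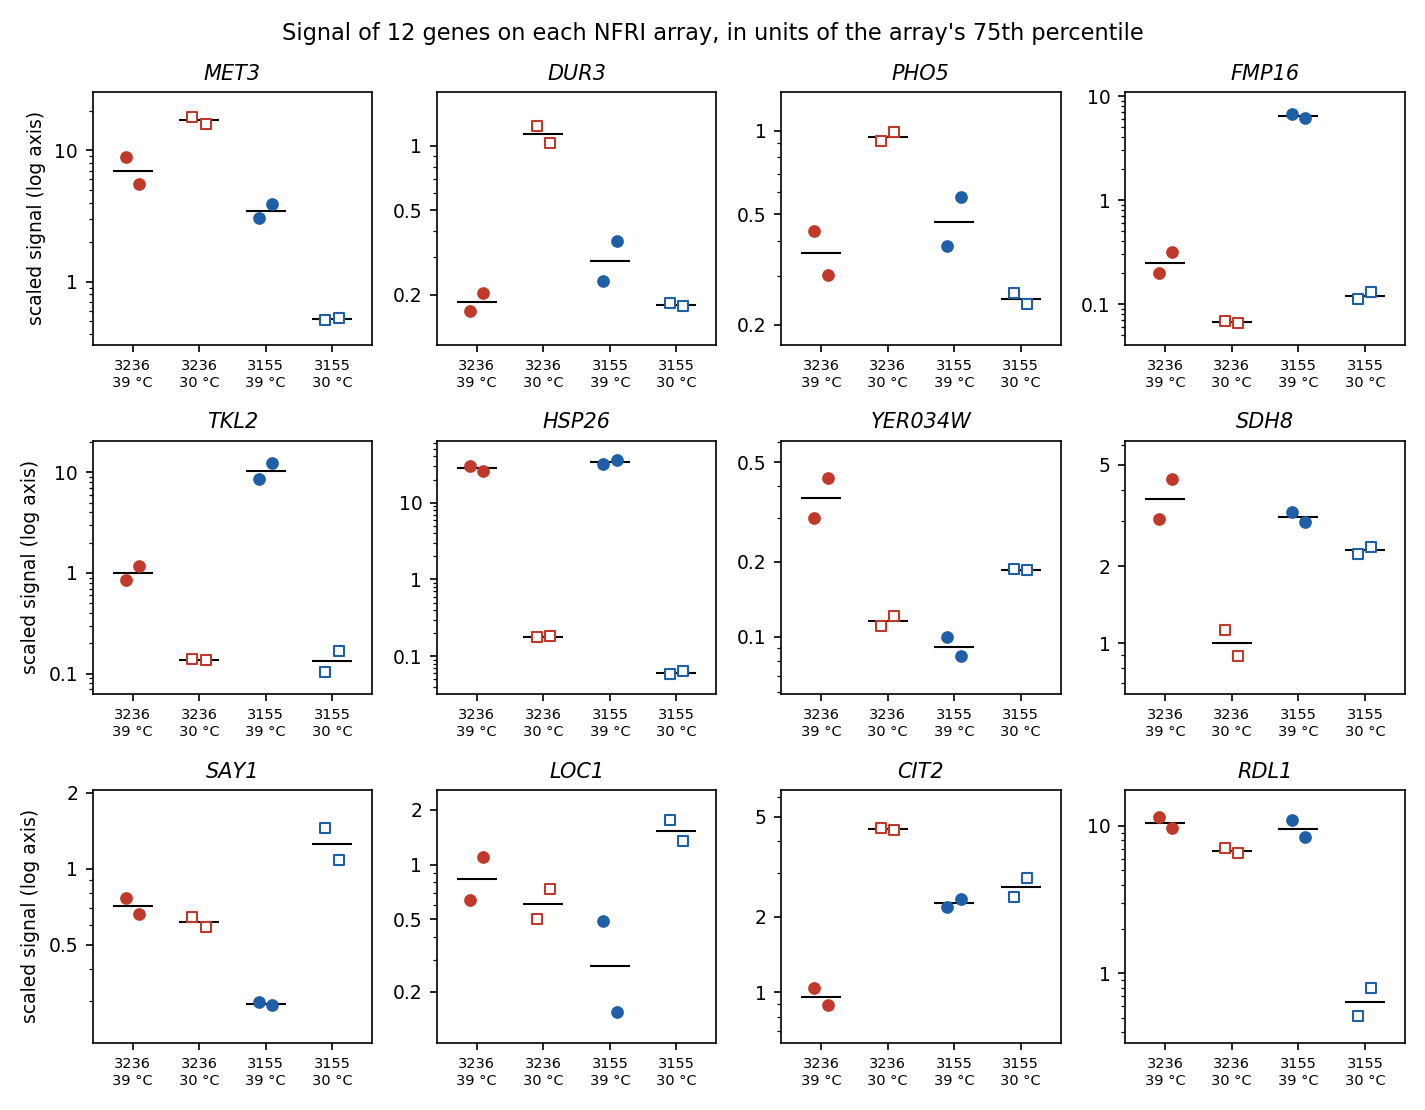
Scaled signal (log axis) of 12 genes on each NFRI array, with NFRI 3236 in red and NFRI 3155 in blue, filled circles for 39 °C, open squares for 30 °C and a bar at the geometric mean of each pair. *FMP16* and *TKL2* stand apart at 39 °C, *HSP26*, *RDL1* and *SDH8* at 30 °C, and in *MET3*, *DUR3* and *PHO5* NFRI 3236 falls where NFRI 3155 rises.

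Among 29 tested genes of the pentose phosphate pathway and of galactose and other sugars, 3 had a lower and 3 a higher response in NFRI 3236. That is 20.7% of the list, against 2.5% of all genes (median interaction of the list 0.10). The 3 higher genes include *MAL11* and *SOR2*, which were not above background on any NFRI 3155 array. The list had 3 calls without replicate 2 of NFRI 3155 at 30 °C or without replicate 2 of NFRI 3236 at 39 °C. *TKL2* (YBR117C), the minor transketolase, had scaled signals of 0.849 and 1.17 in NFRI 3236 at 39 °C and 0.140 and 0.135 in NFRI 3236 at 30 °C, against 8.51 and 12.4 in NFRI 3155 at 39 °C and 0.104 and 0.169 in NFRI 3155 at 30 °C. Its rise was 7.26-fold in NFRI 3236 beside 77.4-fold in NFRI 3155, from levels that overlapped at 30 °C (interaction -3.42 ± 0.52, SE, adjusted p = 0.00361). *GND2*, the minor 6-phosphogluconate dehydrogenase, had 0.508 and 0.418 in NFRI 3236 at 39 °C, against 2.70 and 3.13 in NFRI 3155 at 39 °C, a rise of 4.54-fold in NFRI 3236 beside one of 20.8-fold in NFRI 3155. *NQM1*, the minor transaldolase, completed the 3 genes of this list with a lower response, at an interaction of -2.01 (adjusted p = 0.016, and 0.0669 without replicate 2 of NFRI 3236 at 39 °C). Each has a paralog (*TKL1*, *GND1* and *TAL1*) that did not pass the interaction test. Of 41 genes of oxidative stress, thioredoxin and glutathione, 4 had a lower response and none a higher one (9.76% of the list, against 2.5% of all genes). Without 1 array there were 2 to 7, the fewest without replicate 2 of NFRI 3155 at 30 °C or replicate 2 of NFRI 3236 at 30 °C and the most without replicate 1 of NFRI 3236 at 39 °C, and there were 0 without the shift, where the median of the list was 0.16 in place of -0.46. The 4 were the peroxiredoxin *TSA2* (-1.89), the glutathione transferase *GTT1* (-2.01), the glutaredoxin *GRX8* (-2.31) and the glutathione peroxidase *GPX2* (-1.54). *TSA2* had 0.297 and 0.349 in NFRI 3236 at 39 °C, against 1.41 and 1.35 in NFRI 3155 at 39 °C, while *GRX8* and *GPX2* were higher in NFRI 3236 at 30 °C and fell there on heating, with a rise in NFRI 3155. *GRX8* and *GPX2* each lost the call in 3 of the 8 fits without 1 array (adjusted p up to 0.086 for *GRX8* and 0.0712 for *GPX2*).

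The 3 sugar genes with a higher response in NFRI 3236 were *SUC2*, *MAL11* and *SOR2*. *SUC2*, the invertase that splits sucrose, had 1.07 and 1.03 in NFRI 3236 at 39 °C and 1.14 and 0.982 in NFRI 3236 at 30 °C, against 0.638 and 0.703 in NFRI 3155 at 39 °C and 1.79 and 2.82 in NFRI 3155 at 30 °C. Here NFRI 3155 fell to 0.298-fold and NFRI 3236 stayed within the spread of its pairs (interaction 1.74 ± 0.36, SE, adjusted p = 0.0208, and 0.0598 without replicate 2 of NFRI 3236 at 39 °C). *MAL11*, a maltose permease, and *SOR2*, a sorbitol dehydrogenase that shares its probes with a near copy, were above background on both NFRI 3236 arrays at 39 °C and on no other NFRI array. *MAL11* rose at least 2.19-fold in NFRI 3236 and was at least 3.68-fold higher there than in NFRI 3155 at 39 °C, where both NFRI 3155 arrays were at the floor of the scale. Its call was lost in 5 of the 8 fits without 1 array (adjusted p = 0.108 without replicate 2 of NFRI 3236 at 39 °C). For *SOR2* these bounds were 1.04-fold and 1.75-fold. No NFRI 3155 array was above background for either gene, so their heat change in NFRI 3155 was not measured. The interaction calls of *MAL11* and *SOR2* thus rest on floor signals in that strain.

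Of 26 tested genes in the phosphate regulon list, 5 had a lower response in NFRI 3236 (19.2% of the list, against 1.76% of all genes) and none a higher one. The 5 include *PHO3*, which does not answer to phosphate. The median of the list was -0.34 (0.29 without the shift). The calls were 3 without replicate 1 or without replicate 2 of NFRI 3155 at 30 °C. *PHO5*, the secreted acid phosphatase induced by phosphate starvation, had scaled signals of 0.434 and 0.302 in NFRI 3236 at 39 °C and 0.918 and 0.986 in NFRI 3236 at 30 °C, against 0.385 and 0.576 in NFRI 3155 at 39 °C and 0.260 and 0.237 in NFRI 3155 at 30 °C. A fall to 0.381-fold in NFRI 3236 stood against a 1.90-fold rise in NFRI 3155 (interaction -2.32 ± 0.34, SE, adjusted p = 0.00299), and the groups overlapped at 39 °C but not at 30 °C. *PHM7*, a membrane protein of the regulon, had 2.24 and 2.46 in NFRI 3236 at 39 °C and 3.99 and 4.11 in NFRI 3236 at 30 °C, against 3.84 and 4.62 in NFRI 3155 at 39 °C and 1.03 and 1.60 in NFRI 3155 at 30 °C. *PHO81*, the inhibitor of the Pho80-Pho85 kinase, went the same opposite ways (interaction -1.71 ± 0.33, SE, adjusted p = 0.0143, and 0.0599 without replicate 2 of NFRI 3236 at 39 °C), and *VTC3*, a subunit of the polyphosphate polymerase, rose in NFRI 3155 with no call in NFRI 3236 (-1.39 ± 0.30, SE, adjusted p = 0.0259, and 0.101 without replicate 2 of NFRI 3236 at 39 °C). *PHO5* differed between the strains at 30 °C, and *PHO81* and *VTC3* at 39 °C alone. *PHO3*, an acid phosphatase that answers to thiamine and not to phosphate, had 0.677 and 0.696 in NFRI 3236 at 39 °C and 5.08 and 4.78 in NFRI 3236 at 30 °C, a fall to 0.139-fold, and was above background on 1 of the 4 NFRI 3155 arrays. At 30 °C it was at least 131-fold higher in NFRI 3236 than in NFRI 3155. The high-affinity transporter *PHO84* had an interaction of -1.51 that missed the threshold (adjusted p = 0.108).

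Nitrogen genes moved both ways. Of 34 tested, 5 had a lower and 2 a higher response in NFRI 3236 (20.6% of the list, against 2.5% of all genes). The 7 calls were 3 without replicate 1 of NFRI 3155 at 30 °C, 4 without replicate 2 of NFRI 3236 at 39 °C and 4 without replicate 2 of NFRI 3155 at 30 °C or either array of NFRI 3236 at 30 °C, and 1 without the shift. *MEP2*, the high-affinity ammonium permease, had scaled signals of 0.234 and 0.329 in NFRI 3236 at 39 °C and 5.83 and 7.42 in NFRI 3236 at 30 °C, against 0.328 and 0.369 in NFRI 3155 at 39 °C and 1.15 and 0.715 in NFRI 3155 at 30 °C. It dropped to 0.0422-fold in NFRI 3236, beside 0.383-fold in NFRI 3155 (interaction -3.18 ± 0.40, SE, adjusted p = 0.00147), so that a 7.24-fold strain difference at 30 °C was no longer called at 39 °C. *MEP1*, a second ammonium permease, followed it, at 0.186-fold in NFRI 3236 beside 0.611-fold in NFRI 3155. *DUR3*, the urea permease, had 0.167 and 0.204 in NFRI 3236 at 39 °C and 1.25 and 1.03 in NFRI 3236 at 30 °C, against 0.232 and 0.357 in NFRI 3155 at 39 °C and 0.182 and 0.177 in NFRI 3155 at 30 °C. NFRI 3236 dropped to 0.163-fold while NFRI 3155 rose 1.60-fold (-3.30 ± 0.36, SE, adjusted p = 0.000553). *UGA2*, of 4-aminobutyrate breakdown, and *DAL7*, a malate synthase of allantoin use, were the others with a lower response (-1.61 and -1.41). Without replicate 2 of NFRI 3236 at 39 °C the adjusted p of *DAL7* was 0.0761 in place of 0.0318. The 2 higher genes act in arginine breakdown and moved in NFRI 3155. The arginase *CAR1* had 2.94 and 3.71 in NFRI 3236 at 39 °C and 4.47 and 4.16 in NFRI 3236 at 30 °C, against 4.37 and 2.57 in NFRI 3155 at 39 °C and 16.1 and 13.3 in NFRI 3155 at 30 °C. The ornithine aminotransferase *CAR2* had 8.04 and 11.2 in NFRI 3236 at 39 °C and 9.46 and 7.65 in NFRI 3236 at 30 °C, against 1.27 and 0.895 in NFRI 3155 at 39 °C and 3.07 and 3.36 in NFRI 3155 at 30 °C. Both fell in NFRI 3155 with no call in NFRI 3236, but *CAR1* stood apart at 30 °C, lower in NFRI 3236, and *CAR2* at both temperatures, higher in NFRI 3236. Each lost its call in 6 of the 8 fits without 1 array (adjusted p up to 0.152 for *CAR1* and 0.108 for *CAR2*).

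Of 21 tested genes of gluconeogenesis and the glyoxylate cycle, *CIT2* and *DAL7* passed the interaction test (9.52% of the list). Of 32 peroxisomal genes *POT1* and *SPS19* did (6.25%), against 2.5% of all genes. In the first list 20 interactions were negative, beside 2850 of the 5443 over all genes, and 14 of its 21 genes were above background on all 8 NFRI arrays. The median of that list was -0.72, against -0.03 over all genes, and -0.10 without the shift, where neither *CIT2* nor *DAL7* passed. *CIT2*, the peroxisomal citrate synthase of the glyoxylate cycle, had scaled signals of 1.04 and 0.890 in NFRI 3236 at 39 °C and 4.53 and 4.42 in NFRI 3236 at 30 °C, against 2.18 and 2.36 in NFRI 3155 at 39 °C and 2.39 and 2.86 in NFRI 3155 at 30 °C (interaction -2.01 ± 0.29, SE, adjusted p = 0.00285). *ALD4*, the main mitochondrial aldehyde dehydrogenase, had 3.69 and 3.45 in NFRI 3236 at 39 °C and 13.2 and 12.9 in NFRI 3236 at 30 °C, against 10.6 and 12.2 in NFRI 3155 at 39 °C and 13.4 and 11.1 in NFRI 3155 at 30 °C (-1.77 ± 0.32, SE, adjusted p = 0.0108). In both genes the NFRI 3236 arrays at 39 °C lay under every other NFRI array. *SPS19*, a peroxisomal reductase of fatty acid oxidation, rose 4.32-fold in NFRI 3155 with no call in NFRI 3236 (-2.0 ± 0.35, SE). *POT1*, the peroxisomal thiolase, was not above background on any NFRI 3236 array, and reached 1.08 and 0.914 in NFRI 3155 at 39 °C, at least 33.3-fold above NFRI 3236. The glycolytic *TDH1*, a glyceraldehyde-3-phosphate dehydrogenase with close paralogs, had 29.7 and 26 in NFRI 3236 at 39 °C and 64.1 and 36.8 in NFRI 3236 at 30 °C, against 30.4 and 37.3 in NFRI 3155 at 39 °C and 7.41 and 7.05 in NFRI 3155 at 30 °C, and stood apart at 30 °C. The thiosulfate sulfurtransferase *RDL1* showed the same form, with 11.5 and 9.61 in NFRI 3236 at 39 °C and 7.08 and 6.54 in NFRI 3236 at 30 °C, against 10.9 and 8.38 in NFRI 3155 at 39 °C and 0.513 and 0.799 in NFRI 3155 at 30 °C. *YGR201C*, a gene of uncharacterized function, rose 9.44-fold in NFRI 3155, to 9.18 and 12, while the 4 NFRI 3236 arrays lay between 1.37 and 1.69 (interaction -2.98 ± 0.30, SE, adjusted p = 0.000553).

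Of 114 tested ribosome biogenesis genes, 59 fell in NFRI 3236 and 94 in NFRI 3155, with median heat changes of -0.87 in NFRI 3236 and -1.53 in NFRI 3155. Over all genes 23.5% fell in NFRI 3236 and 24.1% in NFRI 3155. The interaction was positive for 105 of the 114 (median 0.71), beside 2593 of all 5443 genes (median -0.03). Only 5 of the 114 passed the test one by one (none lower). That is 4.39% of the list, near the 2.5% of all genes. They were *RRP36* and *BUD21*, of early pre-rRNA processing, *RRS1* and *BRX1*, of the large subunit, and *ESF2*, of the small subunit processome. *RRS1* (YOR294W) had scaled signals of 0.570 and 1.11 in NFRI 3236 at 39 °C and 0.847 and 0.860 in NFRI 3236 at 30 °C, against 0.137 and 0.107 in NFRI 3155 at 39 °C and 0.434 and 0.588 in NFRI 3155 at 30 °C (interaction 1.96 ± 0.41, SE, adjusted p = 0.0217). *BUD21* had 0.917 and 1.13 in NFRI 3236 at 39 °C and 0.650 and 0.825 in NFRI 3236 at 30 °C, against 0.510 and 0.312 in NFRI 3155 at 39 °C and 1.02 and 0.981 in NFRI 3155 at 30 °C (1.81 ± 0.38, SE, adjusted p = 0.0231). In both genes NFRI 3236 at 39 °C lay above NFRI 3155 at 39 °C, with a fall called in NFRI 3155 alone. Without replicate 2 of NFRI 3236 at 39 °C the adjusted p was 0.0619 for *RRS1* and 0.0943 for *BUD21*. At 39 °C, 36 of the 114 were higher in NFRI 3236 than in NFRI 3155 and none lower, against 1 higher and 4 lower at 30 °C. Over all genes 9.65% were higher and 10.7% lower at 39 °C. The number of calls in this list rested on single arrays. There were 0 without replicate 2 of NFRI 3236 at 39 °C, without replicate 1 of NFRI 3236 at 30 °C or without replicate 2 of NFRI 3155 at 30 °C, 26 without replicate 1 of NFRI 3155 at 39 °C and 11 without replicate 1 of NFRI 3236 at 39 °C. The median of the list stayed between 0.46 and 1.01 throughout. The 35 subunit genes of RNA polymerases I and III showed a smaller shift of the same sign (28 positive, median 0.48) with 0 calls, and the 127 cytosolic ribosomal protein genes had a median of -0.13 (0.49 without the shift), with 0 calls and with 124 falling in NFRI 3236 and 123 in NFRI 3155.

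Several further genes with a higher response encode nucleolar or ribosome-associated proteins outside that list. *LOC1*, a nucleolar protein of large subunit assembly and mRNA localization, had scaled signals of 0.635 and 1.10 in NFRI 3236 at 39 °C and 0.503 and 0.734 in NFRI 3236 at 30 °C, against 0.493 and 0.154 in NFRI 3155 at 39 °C and 1.75 and 1.35 in NFRI 3155 at 30 °C (interaction 2.94 ± 0.60, SE, adjusted p = 0.0207). Its pairs at 39 °C were wide, and it lost the call in 4 of the 8 fits without 1 array, with an adjusted p of 0.0979 without replicate 2 of NFRI 3236 at 39 °C. *FPR3*, a nucleolar prolyl isomerase, was tighter, with 1.96 and 2.87 in NFRI 3236 at 39 °C and 1.65 and 1.48 in NFRI 3236 at 30 °C, against 0.938 and 1.13 in NFRI 3155 at 39 °C and 3.23 and 3.43 in NFRI 3155 at 30 °C, and kept its call in all 8 such fits (2.30 ± 0.38, SE, adjusted p = 0.00608). *YVH1*, a phosphatase needed for large subunit maturation, had 0.382 and 0.583 in NFRI 3236 at 39 °C and 1.29 and 1.04 in NFRI 3236 at 30 °C, against 0.123 and 0.122 in NFRI 3155 at 39 °C and 1.91 and 1.23 in NFRI 3155 at 30 °C (2.35 ± 0.37, SE, adjusted p = 0.00417). *YVH1* fell in both strains, to 0.408-fold in NFRI 3236 beside 0.0801-fold in NFRI 3155, and *FPR3* fell in NFRI 3155 alone. *TMA23*, another nucleolar gene, had the largest interaction in this direction (5.06 ± 0.79, SE), but its signal in NFRI 3155 at 39 °C, 0.0320 and 0.00900, was above background on 1 of 2 arrays, so its size is uncertain.

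Other genes fell more in NFRI 3155 without a list of their own. *SAY1* (YGR263C), a sterol deacetylase, had scaled signals of 0.763 and 0.660 in NFRI 3236 at 39 °C and 0.643 and 0.589 in NFRI 3236 at 30 °C, against 0.296 and 0.288 in NFRI 3155 at 39 °C and 1.46 and 1.08 in NFRI 3155 at 30 °C. The 4 NFRI 3236 arrays lay close together, between the 2 NFRI 3155 pairs, which did not overlap them (interaction 2.31 ± 0.30, SE, adjusted p = 0.00178). *FUR1*, the uracil phosphoribosyltransferase of pyrimidine salvage, had 4.83 and 8.03 in NFRI 3236 at 39 °C, against 1.64 and 1.75 in NFRI 3155 at 39 °C, from levels of 13.1 and 11.9 in NFRI 3236 and 14.8 and 13.2 in NFRI 3155 at 30 °C (2.04 ± 0.37, SE, adjusted p = 0.0102). *YDL241W*, of uncharacterized function, dropped to 0.136-fold in NFRI 3236, beside 0.0349-fold in NFRI 3155. Without replicate 1 of NFRI 3155 at 30 °C the calls of *FUR1* and *YDL241W* were lost, at adjusted p = 0.0521 and 0.0512.

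A rise in NFRI 3236 that NFRI 3155 did not match was uncommon. *YER034W*, of uncharacterized function and 1 of 3 candidates the study picked from these arrays, had scaled signals of 0.298 and 0.431 in NFRI 3236 at 39 °C and 0.111 and 0.121 in NFRI 3236 at 30 °C, against 0.0997 and 0.0835 in NFRI 3155 at 39 °C and 0.186 and 0.185 in NFRI 3155 at 30 °C. It rose 3.10-fold in NFRI 3236 and fell to 0.491-fold in NFRI 3155, without overlap (interaction 2.66 ± 0.30, SE, adjusted p = 0.000553). *FRE4*, a ferric reductase, was the other gene that rose in NFRI 3236 (1.95-fold) and fell in NFRI 3155 (to 0.495-fold), from a 30 °C level of 0.215 and 0.205 in NFRI 3236, against 1.23 and 1.05 in NFRI 3155. *SDH8* (YBR269C, also called *FMP21*), an assembly factor of succinate dehydrogenase and the second candidate, had 3.07 and 4.41 in NFRI 3236 at 39 °C and 1.12 and 0.891 in NFRI 3236 at 30 °C, against 3.26 and 2.99 in NFRI 3155 at 39 °C and 2.24 and 2.38 in NFRI 3155 at 30 °C. It rose 3.68-fold in NFRI 3236, and its 1.35-fold change in NFRI 3155 was not past the test (interaction 1.45 ± 0.31, SE, adjusted p = 0.0282). The strains overlapped at 39 °C (strain difference 1.18-fold, adjusted p = 0.488) and differed at 30 °C, where NFRI 3236 stood at 0.432-fold of NFRI 3155 (adjusted p = 0.00326). Without 1 array, *SDH8* kept its call in 3 of 8 fits, with adjusted p up to 0.108. It was the single gene called among the 10 tested of succinate dehydrogenase and its assembly. *PRM5*, a cell wall stress reporter gene and the third candidate, had 3.33 and 3.26 in NFRI 3236 at 39 °C, against 0.494 and 0.596 in NFRI 3155 at 39 °C, but started near background and its interaction of 1.68 ± 0.54 was not past the test (SE, adjusted p = 0.137). Since these candidates were chosen by the study on the same arrays, their directions here are no independent evidence. The study also measured the candidates by real-time RT-PCR, which is not part of these arrays. There it reported a heat ratio of *FMP21* that rose with the thermotolerance of the strains. For *YER034W* and *PRM5* it reported no such relationship.

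Both strains raised *MDJ1* and *YPS6*, NFRI 3236 more. *MDJ1*, the Hsp40 partner of the mitochondrial Hsp70, had scaled signals of 3.92 and 3.93 in NFRI 3236 at 39 °C and 0.577 and 0.731 in NFRI 3236 at 30 °C, against 2.66 and 2.69 in NFRI 3155 at 39 °C and 1.00 and 1.21 in NFRI 3155 at 30 °C (interaction 1.32 ± 0.30, SE, adjusted p = 0.0396, kept in 1 of 8 fits without 1 array). *YPS6*, a cell surface aspartic protease, was not above background in NFRI 3236 at 30 °C, where it lay at least 13.1-fold under NFRI 3155, and rose at least 6.74-fold in NFRI 3236.

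The chaperone and quality control lists held 0 or 1 call each, which in lists of this size is near the 2.5% of all genes. Among 22 cytosolic Hsp70, Hsp40 and exchange factor genes 1 did, *JJJ1*, an Hsp40 of large ribosomal subunit assembly that fell in NFRI 3155 (interaction 1.52 ± 0.35, SE, adjusted p = 0.0396, and 0.148 without replicate 2 of NFRI 3236 at 39 °C). Among 16 genes of Hsp90, its cochaperones and Hsp104 none did, nor among 37 proteasome, 30 endoplasmic reticulum folding, 36 cell wall integrity, 27 ergosterol, 26 tricarboxylic acid cycle or 21 trehalose and glycogen genes. *HSP82*, the inducible Hsp90, had 15.6 and 14 in NFRI 3236 at 39 °C and 0.920 and 0.928 in NFRI 3236 at 30 °C, against 15.4 and 17.9 in NFRI 3155 at 39 °C and 1.02 and 0.929 in NFRI 3155 at 30 °C. Its interaction was -0.10 (0.53 without the shift) with a 95% interval of -0.98 to 0.78, which leaves room for differences of nearly 1 log2 unit in either direction. For *SSA4*, the inducible Hsp70, it was -0.62 with an interval of -1.49 to 0.25, and 0.00 without the shift. *HSP104*, the disaggregase, had an interaction of -1.35 that missed the threshold (adjusted p = 0.112). The catalase gene *CTT1* rose 3.11-fold in NFRI 3155 with no call in NFRI 3236, but its interaction of -1.66 was also not past the test (adjusted p = 0.0959).

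**Figure D5:**
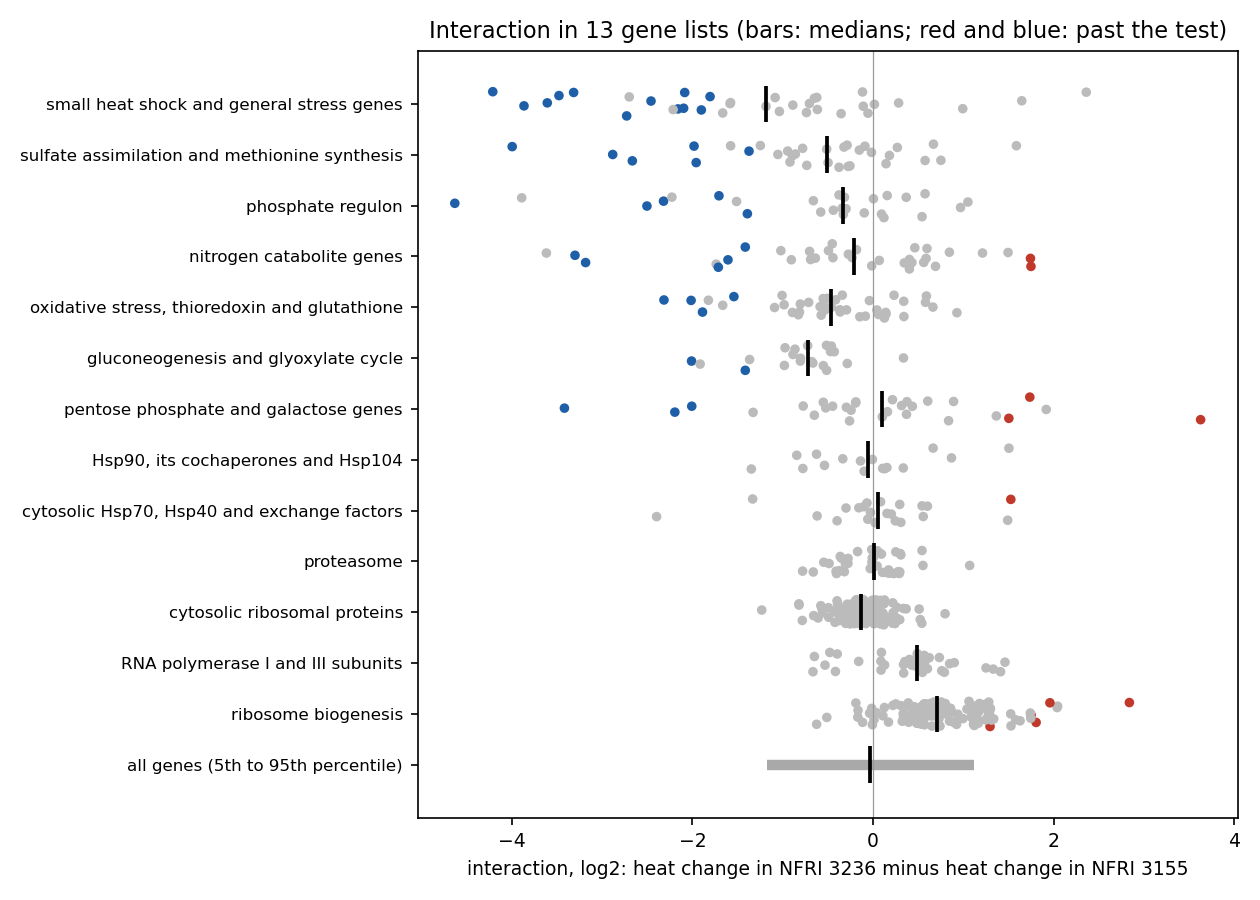
Interaction on the log2 scale (horizontal axis) of every tested gene in 13 lists, with black bars at the medians, red or blue points where the test was passed and, in the bottom row, the 5th to 95th percentile of all genes. The general stress list has its median at -1.19 and 12 blue points, ribosome biogenesis its median at 0.71 and 5 red points, and the medians of the Hsp90, Hsp70 and proteasome lists lie within 0.1 of 0, all relative to the 75th percentile of the array.

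A few calls came from genes that the array measures poorly. *FLO9*, a flocculin of the cell surface whose probes are shared with related genes, had scaled signals of 6.74 and 7.82 in NFRI 3236 at 39 °C and 20.7 and 18.8 in NFRI 3236 at 30 °C, against 0.139 and 0.216 in NFRI 3155 at 39 °C and 0.136 and 0.0942 in NFRI 3155 at 30 °C. Which flocculin gene it reports cannot be told, and its call was lost in 5 of 8 fits without 1 array. *YER138W-A*, whose probe set is shared among Ty element sequences, had 0.535 and 0.514 in NFRI 3155 at 30 °C and at least 3.29 on each of the other 6 NFRI arrays. *SIP18*, a hydrophilin of osmotic and drying stress, reached 1.4 and 0.635 in NFRI 3155 at 39 °C, against 0.106 and 0.0693 in NFRI 3236 at 39 °C, from signals near background at 30 °C. Of the 26 haploid-specific and 11 mating-type-specific genes, 1 was called, *MF(ALPHA)1*, an alpha-factor gene near background on most arrays. A constant strain difference cancels out of the interaction, so this count is no check on mating type or ploidy. By the strain test, 3 of the 26 were lower in NFRI 3236 at 30 °C and 6 at 39 °C, with 0 higher. Over all genes 4.46% and 10.7% were lower. Only 13 of the 26 and 5 of the 11 were above background on all 8 NFRI arrays.

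S288C was set beside both strains as a description, since it was grown as the control of the study. Its heat change lay nearer to that of NFRI 3236 than to that of NFRI 3155 in 32 of the 40 genes with a higher response and in 49 of the 96 with a lower one. Over all genes, 45.4% were nearer to NFRI 3155. For *FMP16*, S288C had scaled signals of 4.92, 5.41 and 4.79 at 39 °C and 0.105, 0.0550 and 0.104 at 30 °C, near the levels of NFRI 3155. For *MET3* it had 0.360, 0.727 and 0.694 at 39 °C and 0.453, 0.498 and 0.532 at 30 °C which overlapped.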

How the data were processed

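The 14 arrays (Affymetrix Yeast Genome 2.0) were read by the authors with GCOS, and the deposited table gives for each probe set a linear intensity, not yet normalized between arrays. Per the methods the replicates are independent experiments. Strain and temperature came from the labels.

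Here signals under 1 were set to 1, taken to log2 and reduced by the 75th percentile of that array, as the methods describe for their own analysis. Genes above the 20th percentile on every array of at least 1 group were kept, the brightest probe set standing for a gene. Symbols came from the platform annotation, updated through RefSeq. A single model of all 6 groups was fitted (limma 3.58.1, R 4.3.3), and differences were called at a Benjamini-Hochberg adjusted p under 0.05 over 5443 genes. All tests were two-sided. The script recovered changes in simulated data. A bound ("at least") sets the bright group's mean against the higher of the dim signal and the background level. The 2 arrays per group limit the precision, and how well probes match the NFRI genomes was not tested.

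The comparison, the 48 gene lists and the tests were chosen with earlier results of these data known. Named genes are the 12 largest interactions in each direction above background on all 8 NFRI arrays and with both replicate-number differences of the same sign, the 5 largest in each direction among the dimmer genes, the 4 largest of each pattern of heat calls, up to 3 called genes per list and direction, and the 3 candidates of the study. *MET1*, *MET5*, *MET8*, *MET10*, *MET16*, *SUL1*, *HSP12*, *HSP26*, *HSP82*, *HSP104*, *SSA4*, *CTT1*, *DDR2*, *NQM1*, *GPX2*, *VTC3*, *UGA2*, *PHO84* *TKL1*, *GND1*, *TAL1* and the members listed by name alone were added after their values were seen. A replicate number was not taken to pair arrays, since the correlations of deviations of same-numbered arrays over the 6 pairs of NFRI groups ran from -0.24 to 0.14. A planned search of promoters for motifs was not run, and no sequences or coordinates are given.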

Additional observations from a re-analysis of the deposited data

Results flagged for a closer look

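Both counts of the interaction are differences between the strains under the same contrast, tested directly, with 40 genes responding higher and 96 lower in NFRI 3236 than in NFRI 3155. Among the genes described, those past the heat test in opposite directions in the 2 strains stand out. *YER034W* and *FRE4* rose in NFRI 3236 and fell in NFRI 3155, with interactions of 2.66 and 1.97 on the log2 scale. The others fell in NFRI 3236 and rose in NFRI 3155. Their interactions were -4.63 for *PHO3*, -3.99 for *MET3*, -3.30 for *DUR3*, -2.88 for *MET17*, -2.66 for *MET14*, -2.50 for *PHM7*, -2.32 for *PHO5*, -2.31 for *GRX8*, -1.71 for *PHO81*, -1.54 for *GPX2* and -1.57 for *CHO2*, which methylates phosphatidylethanolamine. For *PHO3* the rise in NFRI 3155 lies at background level and is not measured.

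Outside the genes tested, 202 probe sets without a gene name were above background on all 8 NFRI arrays. When they were fitted together with the genes, 4 passed the interaction test, all lower in NFRI 3236.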

How the results depend on the processing

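Counts are given as total, higher and lower in NFRI 3236, beside 136, 40 and 96. Without the 75th percentile shift they were 24, 12 and 12, where the median interaction moved by 0.62, and the heat calls were 1486 higher and 121 lower in NFRI 3236 and 591 higher and 503 lower in NFRI 3155. Adding 16 to each signal gave 210, 72 and 138, trend and robust moderation 172, 67 and 105, and the 8 NFRI arrays alone 60, 11 and 49. An ordinary linear model on these 8 gave 0, 0 and 0 interaction calls (677 genes at an unadjusted p under 0.05), with heat calls of 514 and 778 in NFRI 3236 and 644 and 855 in NFRI 3155. A ratio of fold changes above 1.5 with no test held for 1807, 887 and 920 genes. Without 1 array the counts ran from 63 to 280, 11 to 125 and 52 to 157, and the heat calls from 564 to 910 and 844 to 1369 in NFRI 3236 and 635 to 1023 and 954 to 1326 in NFRI 3155. Quantile normalization (133, 48 and 85), other percentiles, filters and probe set means stayed within 1.5 times. None of the 70 genes of the naming rule changed sign under any setting run, and 32 of the 69 called ones kept the call without any 1 array. Of 25 genes named outside the rule, 14 were called, with 0 sign changes, and 0 kept the call without any 1 array. Among the other 11, the sign of *HSP82*, *SSA4*, *TKL1*, *GND1* and *TAL1* changed without the shift.

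With the replicate number as a block in the 8 NFRI arrays the counts were 36, 6 and 30. A block with the numbers crossed in NFRI 3236 at 39 °C, added after seeing the data, gave 65, 11 and 54. The numbers are not known to pair the arrays.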
